A study of Homo sapiens with 36 samples.

Results

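The libraries described here compare MIA PaCa-2 cells that carry a guide RNA against HBS1L with cells that carry a control guide, both after 96 h with doxycycline (dox). They are 6 of the 36 polyadenylated RNA libraries of the series, 3 for each guide, and they were chosen by their titles alone. MIA PaCa-2, spelled MIAPACA-2 in the labels, is a human pancreatic cancer cell line. The HBS1L dox group had the HBS1L guide and 2 µg/mL dox, and the control dox group had the control guide, labelled NTC, and the same dose of dox. The lines were built with dox-inducible Cas9 and a guide, and all groups grew in RPMI with tetracycline-free serum. The same lines without dox at 96 h, and with dox at 48 h, gave 3 libraries per group and are used beside the comparison. The stated aim was to learn what losing PELO or HBS1L does where the SKI complex is destabilised. The labels do not say whether each line is 1 clone or a pool, what the guide sequences are, or whether replicates came from separate cultures. P-values therefore rest on the spread between libraries alone, which may be technical.

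HBS1L is a translational GTPase that works with PELO on ribosomes that have stalled, often at the end of a broken messenger RNA. Together with the ATPase ABCE1 they split such ribosomes into subunits so that the subunits can be used again. The SKI complex, a helicase (SKIC2) on a scaffold (SKIC3) with WD-repeat subunits (SKIC8), pulls the messenger from the ribosome and feeds it to the cytoplasmic RNA exosome. A splice form of HBS1L has been described as the bridge between the SKI complex and the exosome, and gene counts do not separate the forms.

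HBS1L messenger RNA was low in every library of the HBS1L line with dox. The gene (ENSG00000112339.15) spans chr6:134960378-135103056 of GRCh38 on the - strand. HBS1L had 33.4, 34.1 and 33.8 CPM in the HBS1L dox libraries, against 149, 149 and 147 CPM in the control dox libraries. Levels are CPM, counts scaled to library size, which are comparable between libraries for 1 gene but not between genes. The groups lay far apart, and the log2 fold change, HBS1L dox over control dox, was -2.14 ± 0.03, adjusted p = 8.90e-34 (edgeR quasi-likelihood test with Benjamini-Hochberg adjustment over 20767 genes). The libraries are bulk RNA, so fewer cells that express a gene and less of its RNA per cell cannot be told apart. Some of the HBS1L difference was there without dox: the gene averaged 111 CPM in the untreated HBS1L line and 143 CPM in the untreated control line (log2 fold change -0.37 ± 0.03, adjusted p = 1.63e-09). The difference with dox minus the difference without dox was -1.77 ± 0.05, adjusted p = 3.18e-26. At 48 h with dox the log2 fold change was -1.90 ± 0.03, adjusted p = 4.24e-32.

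**Figure D1:**
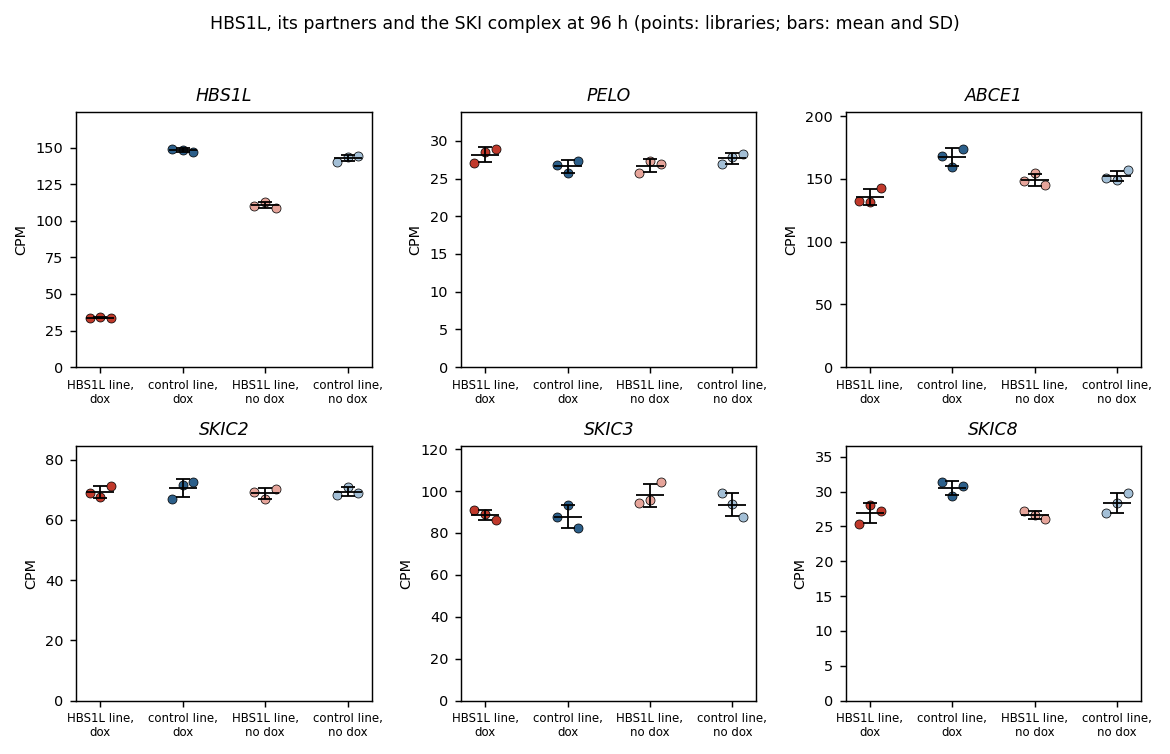
Levels in CPM (vertical axes, from 0) of HBS1L, PELO, ABCE1 and 3 SKI complex genes at 96 h in the 4 groups of libraries, with 1 point per library and bars for the mean and SD over 3 libraries. HBS1L sits at 33.4 to 34.1 CPM in the HBS1L dox libraries and above 100 CPM in every library of the other groups, whereas PELO, SKIC2 and SKIC3 overlap between the dox groups.

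Of the partners of HBS1L, PELO was not called and ABCE1 fell. PELO, which enters the empty site of the stalled ribosome, had 27.1, 28.5 and 28.97 CPM in the HBS1L dox libraries, against 26.9, 25.7 and 27.3 CPM in the control dox libraries, and it did not pass the test (0.08 ± 0.05, adjusted p = 0.265). ABCE1, which splits the ribosome, had 132, 132 and 143 CPM in the HBS1L dox libraries, against 169, 159.6 and 174 CPM in the control dox libraries, and fell (-0.31 ± 0.04, adjusted p = 5.60e-07). The 2 groups did not overlap for ABCE1, and without dox it averaged 149 CPM in the untreated HBS1L line and 152 CPM in the untreated control line, between the dox groups. Of the SKI genes, SKIC2 (log2 fold change -0.02, adjusted p = 0.724) and SKIC3 (0.01, adjusted p = 0.885) were not called, and SKIC8 was lower in every HBS1L dox library, at 25.3, 28.1 and 27.2 CPM in the HBS1L dox libraries, against 31.4, 29.4 and 30.8 CPM in the control dox libraries (-0.18 ± 0.04, adjusted p = 0.00188). For SKIC8 the log2 fold change without dox was -0.09. The difference with dox minus that without dox was also -0.09, and neither was called. FOCAD, whose protein stabilises the SKI complex, had at most 1 count in each of the 36 libraries and was not tested. AVEN, taken with the SKI genes as the fifth member of the list, was not called (0.14). Without control dox replicate 3, 1 member of this list was called higher, which was not SKIC2, SKIC3 or SKIC8.

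Of 15 genes of ribosome rescue and termination, 2 rose and 7 fell, where 14.9% of all genes tested rose and 14.8% fell. The list's median log2 fold change was -0.11, against 0.01 over all genes tested. GTPBP2, a GTPase gene tied to the rescue of stalled ribosomes in mouse neurons, had 49.5, 53.5 and 57.6 CPM in the HBS1L dox libraries, against 33.98, 36.9 and 33.9 CPM in the control dox libraries, and rose (0.61 ± 0.06, adjusted p = 5.47e-10). It was the larger of the 2 rises. EIF2D, which recycles the small subunit, rose by 0.17. Beside HBS1L and ABCE1, the falls were small: the release factors ETF1 (-0.18), GSPT1 (-0.13) and GSPT2 (-0.24), the recycling factor DENR (-0.16) and the peptidyl-tRNA hydrolase PTRH2 (-0.17).

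Several genes in the wider stretch of chromosome 6 around HBS1L were also lower. Of 7 genes tested there, HBS1L itself included, 5 fell and 0 rose, where 14.8% and 14.9% of all genes did. They are called neighbours here, but not all lie next to HBS1L. SGK1 ends at base 134318112, SLC2A12 and TBPL1 lie further off, and HBS1L starts at base 134960378. ALDH8A1, an aldehyde dehydrogenase gene, had 1.24, 1.12 and 1.10 CPM in the HBS1L dox libraries, against 1.59, 1.61 and 1.91 CPM in the control dox libraries (-0.56 ± 0.14, adjusted p = 0.00296), and its groups did not overlap. SLC2A12, a glucose transporter gene, had 9.09, 8.86 and 8.07 CPM in the HBS1L dox libraries, against 10.7, 11.8 and 12.4 CPM in the control dox libraries (-0.42 ± 0.06, adjusted p = 2.51e-06). TBPL1 fell by 0.25 and SGK1, a kinase induced by stress and steroids, by 0.23 on the log2 scale; exons of SLC2A12 and TBPL1 overlap each other over 38.9% and 34.5% of their length, so their reads may be shared. MYB (-0.28) and AHI1 (0.11) were not called, and PDE7B was too low to test. Without dox the 6 neighbours other than HBS1L were not called, with ALDH8A1 at -0.28 and SLC2A12 at -0.16. For ALDH8A1 the difference with dox minus that without dox was -0.28 and was not called. The call of that difference for SLC2A12 was lost under 13 of 19 alternatives.

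Over all 20767 genes tested, 6185 (29.8%) differed between the HBS1L dox and control dox groups at an adjusted p under 0.05, 3104 higher and 3081 lower with the HBS1L guide. Most differences were small: 299 genes (1.44%) rose and 51 (0.246%) fell at least 2-fold, and the median size over all genes was 0.18 on the log2 scale. The 3 and 3 libraries did not overlap for 42.1% of genes. Without dox the same lines differed at 28 genes (0.135%). The difference with dox departed from that without dox at 2228 genes (10.7%), 1123 upward (5.41%) and 1105 downward (5.32%), a comparison that uses the same dox libraries. Total counts per library ran from 60396430 to 62480272 in the HBS1L dox group and from 59851759 to 61813630 in the control dox group. On a principal component analysis of the 12 libraries of 96 h, the first component (23.9% of the variance) placed the HBS1L dox libraries at 8.49 to 11.2 and the control dox libraries at -12.6 to -7.62, with the untreated HBS1L libraries at -1.45 to 7.72 and the untreated control libraries at -4.91 to -1.87. Intermediate filament genes of the line were high (VIM, KRT8 and KRT18 above 1000 CPM), while EPCAM and CDH1, epithelial markers, had at most 3 counts in any library. Among markers of other cell types, the fibroblast marker COL1A2, a fibrillar collagen, averaged 158 CPM in the HBS1L dox libraries and 191 CPM in the control dox libraries. Without dox COL1A2 averaged 192 CPM in the HBS1L line and 222 CPM in the control line, without overlap, though it was not called (-0.20). For COL1A2 the difference with dox minus that without dox was -0.07 and was not called. Summed fibroblast markers lay at 156 to 182 CPM in the HBS1L dox libraries and 193 to 219 CPM in the control dox libraries, with 1 of 8 higher (ACTA2, 0.74), 2 lower (COL1A2, -0.28, and COL3A1, -0.26), and DCN and LUM at 3 counts or fewer in any library. Without dox these sums were also apart, at 206 to 215 CPM in the HBS1L line and 234 to 241 CPM in the control line. Leukocyte markers lay at 26.6 to 28.04 CPM in the HBS1L dox libraries and 26.9 to 30.8 CPM in the control dox libraries, with ITGAM lower (-0.68), PTPRC at 3 counts or fewer and CD3E at 1 count or fewer. Endothelial markers lay at 73.8 to 79.1 CPM in the HBS1L dox libraries and 77.1 to 84.7 CPM in the control dox libraries, with CDH5 lower, PECAM1 and TEK at 2 counts or fewer, and KDR at 0 in all 6 libraries.

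Integrated stress response genes rose together. In this pathway, kinases that sense stalled or collided ribosomes, amino acid shortage or other stress phosphorylate the initiation factor eIF2, general translation drops, and the transcription factor ATF4 is made and switches on genes for amino acid supply, tRNA charging and stress signalling. Of 43 members tested, 37 rose and 2 fell, and 38 had all HBS1L dox libraries above all control dox libraries. Over all genes the groups did not overlap, in either direction, for 42.1%. The median log2 fold change was 0.45 with dox at 96 h, 0.02 between the same lines without dox and 0.02 with dox at 48 h. Without dox 0 members were called, and their log2 fold changes ran from -0.14 (WARS1) to 0.32 (INHBE).

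Among the regulators, ATF4 itself had 279.9, 296 and 334 CPM in the HBS1L dox libraries, against 210.0, 217 and 191 CPM in the control dox libraries (0.56 ± 0.06, adjusted p = 2.36e-08). DDIT3, which encodes the stress factor CHOP, had 20.7, 22.1 and 22.9 CPM in the HBS1L dox libraries, against 9.62, 10.5 and 9.95 CPM in the control dox libraries (1.13 ± 0.08, adjusted p = 4.18e-13). ATF5, a related factor, had 203, 219 and 234 CPM in the HBS1L dox libraries, against 124, 119.6 and 123 CPM in the control dox libraries (0.84 ± 0.04, adjusted p = 3.62e-17). In all 3 the HBS1L dox libraries lay above every control dox library. TRIB3, a brake on AKT and ATF4, rose by 0.90, ATF3 by 0.69, and the partners of ATF4, CEBPB and CEBPG, by 0.45 and 0.40. PPP1R15A, which returns eIF2 to its unphosphorylated state, rose by 0.19.

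FGF21, INHBE and GDF15, which encode secreted proteins, had the 3 largest fold changes of the list. GDF15, a stress hormone that acts on appetite, had 26.4, 28.4 and 32.2 CPM in the HBS1L dox libraries, against 7.55, 9.07 and 9.98 CPM in the control dox libraries (1.71 ± 0.09, adjusted p = 6.25e-15). INHBE, an activin subunit, had 4.19, 4.78 and 5.87 CPM in the HBS1L dox libraries, against 1.28, 1.60 and 1.53 CPM in the control dox libraries (1.75 ± 0.11, adjusted p = 3.59e-14). FGF21, a metabolic hormone, was near the floor, at 0.370, 0.334 and 0.410 CPM in the HBS1L dox libraries, against 0.0518, 0.0998 and 0.103 CPM in the control dox libraries (2.10 ± 0.38, adjusted p = 5.73e-05). VEGFA, the growth factor for blood vessels, had 68.6, 74.6 and 85.1 CPM in the HBS1L dox libraries, against 40.5, 41.9 and 39.2 CPM in the control dox libraries (0.91 ± 0.05, adjusted p = 1.17e-15). None of the 4 had groups that overlapped, which was a condition of naming for GDF15, INHBE and VEGFA.

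Genes of amino acid supply were higher too. ASNS, which makes asparagine, had 103, 111 and 122 CPM in the HBS1L dox libraries, against 47.7, 52.6 and 50.7 CPM in the control dox libraries (1.15 ± 0.06, adjusted p = 3.68e-17). PHGDH, the first enzyme of serine synthesis, had 204, 210.4 and 219.5 CPM in the HBS1L dox libraries, against 97.2, 105 and 106 CPM in the control dox libraries (1.04 ± 0.04, adjusted p = 1.46e-19). PSAT1, the next enzyme, rose by 0.65, while PSPH, the last, was not called (0.06). The transporters SLC7A11, which imports cystine, and SLC7A5, which imports leucine, rose by 0.61 and 0.45, and the glutathione-degrading enzyme CHAC1 by 0.61. Charging enzymes rose less: GARS1 by 0.41, SARS1 by 0.41, CARS1 by 0.39, WARS1 by 0.32 and AARS1 by 0.22, while EPRS1 (0.10) and NARS1 (-0.05) were not called. The 2 members that fell were SLC38A2, an amino acid importer, at 835, 819 and 869 CPM in the HBS1L dox libraries, against 949, 1003 and 1048 CPM in the control dox libraries (-0.25 ± 0.07, adjusted p = 0.00349), and ALDH18A1, an enzyme of proline synthesis, at 159, 160.3 and 167 CPM in the HBS1L dox libraries, against 189.9, 181 and 203 CPM in the control dox libraries (-0.24 ± 0.05, adjusted p = 5.05e-04). Exons of ASNS, DDIT4, DDIT3 and ATF5 overlap another annotated gene over 44.6%, 41.2%, 39.6% and 23.7% of their length, and CBS (0.46) has a near-identical annotated copy, which makes these values less certain.

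ATF4 with a C/EBP partner is known to bind a composite element, written here as TGATGNAA (N stands for any base). Promoter windows from 250 bases before to 50 after the RefSeq start (GRCh38.p14) were searched on both strands. The letters occurred in 13 of 35 members with a promoter in the table, against 4.46% of 27305 genes, and in 11 of the 30 that rose among those 35. They are shown with 10 bases on each side and the match in capitals for 6 members that rose and for NARS1, which holds a match and was not called, because they place the element beside each gene's response.
ASNS: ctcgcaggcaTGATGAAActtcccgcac
CHAC1: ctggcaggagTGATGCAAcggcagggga
CEBPG: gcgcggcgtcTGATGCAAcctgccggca
FGF21: tcctcctcccTGATGCAAtcctggtgtt
ATF3: aaggtcaggaTGATGGAAggctgtcata
JDP2: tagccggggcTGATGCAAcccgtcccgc
NARS1: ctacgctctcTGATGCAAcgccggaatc
The windows lie at chr7:97872459-97872486 on the - strand for ASNS, chr15:40953252-40953279 on the - strand for CHAC1, chr19:33374061-33374088 on the + strand for CEBPG and chr19:48755460-48755487 on the - strand for FGF21. The other 3 lie at chr1:212565206-212565233 on the + strand for ATF3, chr14:75427996-75428023 on the + strand for JDP2 and chr18:57621805-57621832 on the - strand for NARS1. ASNS carries TGATGAAA and 5 of the 7 carry TGATGCAA. JDP2, a repressor of AP-1 that sits beside ATF3 in stress responses, rose by 0.65. A match is a description of the sequence and no measure of binding.

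Host genes of small nucleolar RNAs rose as well. Their spliced transcripts hold short reading frames and are known targets of translation-dependent decay. Of 19 members 13 rose and 0 fell, with a median log2 fold change of 0.49 with dox at 96 h, 0.03 without dox and 0.24 with dox at 48 h. ZFAS1 (chromosome 20, 49278178 to 49295738 on the + strand) had 99.6, 99.4 and 98.3 CPM in the HBS1L dox libraries, against 41.97, 43.3 and 45.4 CPM in the control dox libraries (1.19 ± 0.06, adjusted p = 2.45e-16). SNHG32 had 138, 149.7 and 147 CPM in the HBS1L dox libraries, against 67.7, 65.7 and 68.6 CPM in the control dox libraries (1.10 ± 0.06, adjusted p = 2.39e-16). GAS5 had 261, 268 and 246 CPM in the HBS1L dox libraries, against 132, 139.6 and 120.5 CPM in the control dox libraries (0.98 ± 0.06, adjusted p = 1.84e-14). In all 3 every HBS1L dox library lay above every control dox library, which was a condition of naming for ZFAS1. EPB41L4A-AS1, SNHG29 and SNHG8 rose by 0.73, 0.60 and 0.58, whereas DANCR (-0.11), SNHG16 (-0.09) and SNHG3 (0.08) were not called. Exons of ZFAS1, SNHG32 and EPB41L4A-AS1 overlap other genes over 46.9%, 29.1% and 49.6% of their length.

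**Figure D2:**
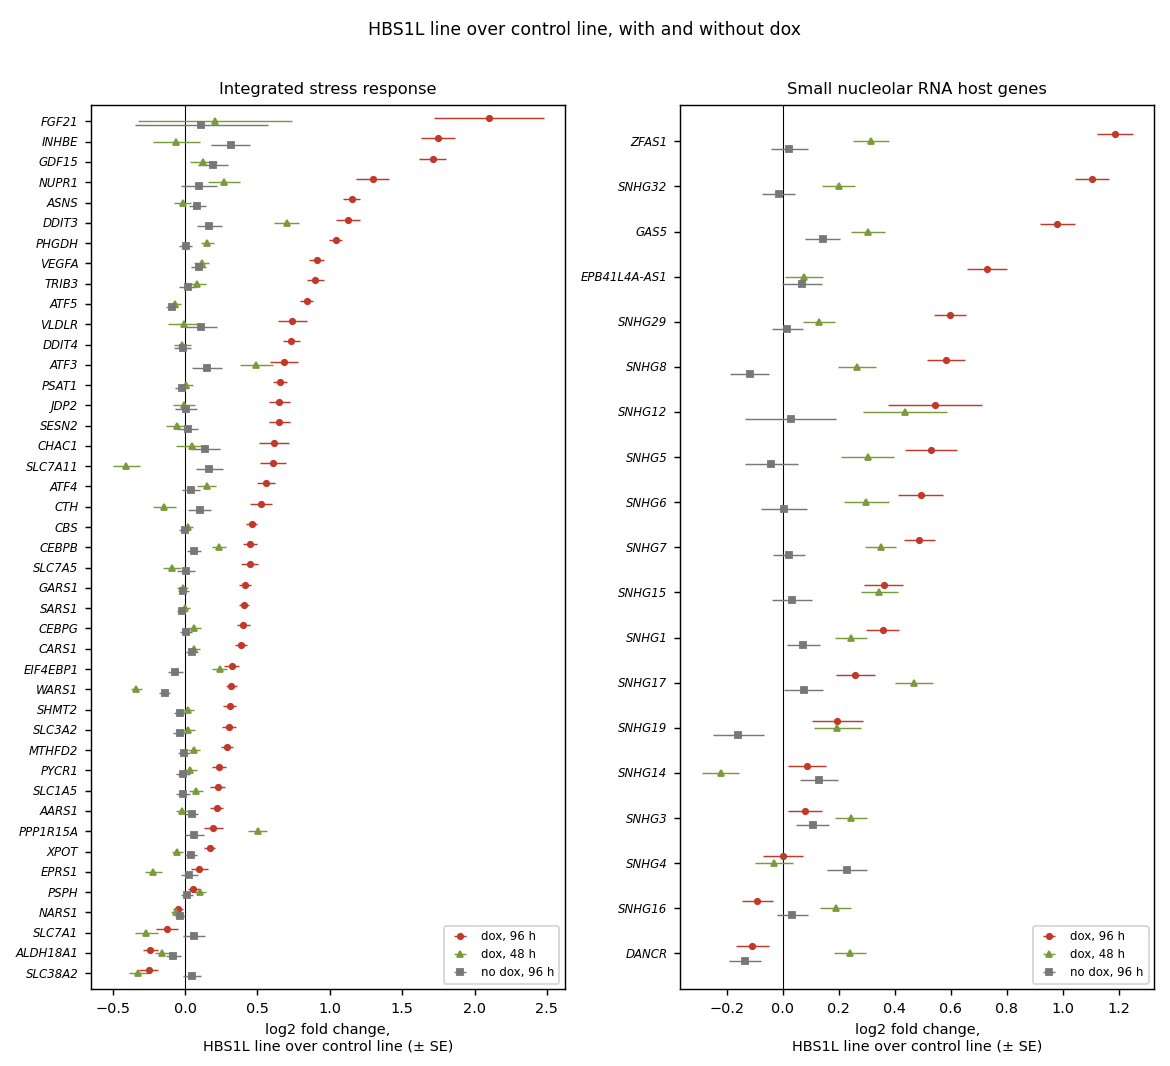
Log2 fold changes of the HBS1L line over the control line (horizontal axes, with SE) for each tested member of the integrated stress response list and of the small nucleolar RNA host gene list, with dox at 96 h (circles), with dox at 48 h (triangles) and without dox at 96 h (squares). With dox at 96 h 37 of 43 and 13 of 19 members rose, while the values without dox lie near 0; DDIT3, at 0.70, and PPP1R15A, at 0.50, are the highest triangles of the stress list.

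Factors of RNA decay and of ribosome quality control moved by small amounts, with more falls than rises in each list. Over all genes tested 14.9% rose and 14.8% fell. For the difference with dox minus that without dox, nonsense-mediated decay factors had 1 up and 1 down (median -0.08). Exosome and cytoplasmic decay genes had 0 up and 3 down for that difference (median -0.03). Of 14 factors of nonsense-mediated decay 1 rose and 4 fell: UPF3A, a modulator of the pathway, had 26.2, 27.3 and 26.2 CPM in the HBS1L dox libraries, against 18.9, 19.9 and 17.5 CPM in the control dox libraries (0.50 ± 0.08, adjusted p = 3.73e-06). SMG8, which restrains the kinase SMG1, had 25.5, 25.5 and 29.5 CPM in the HBS1L dox libraries, against 34.7, 33.3 and 33.9 CPM in the control dox libraries (-0.34 ± 0.08, adjusted p = 0.00127). UPF1, the central helicase, and EIF4A3, a core of the exon junction complex, had log2 fold changes of -0.23 and -0.33. Exosome and cytoplasmic decay genes had 1 of 18 up and 8 down. DIS3, the nuclease of the exosome, had 57.8, 57.1 and 63.3 CPM in the HBS1L dox libraries, against 73.7, 73.2 and 70.1 CPM in the control dox libraries (-0.28 ± 0.06, adjusted p = 2.64e-04). XRN1, which degrades from the other end, had -0.23, while EXOSC8, an exosome ring subunit, rose by 0.19. This count depended on single libraries: 3 fell without HBS1L dox replicate 1, and 4 without HBS1L dox replicate 2 or control dox replicate 1. EXOSC8 was not called without HBS1L dox replicate 2 or 3 (adjusted p = 0.0619 and 0.0687).

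Sensors of collided ribosomes and the quality control behind them had 6 of 22 up and 9 down, where 14.9% and 14.8% of all genes were. For the difference with dox minus that without dox, 3 were called upward and 5 downward. EDF1, which binds collided ribosomes, had 167, 169 and 167 CPM in the HBS1L dox libraries, against 146, 137 and 144 CPM in the control dox libraries (0.24 ± 0.05, adjusted p = 1.45e-04). ZNF598, the ligase that marks them, rose by 0.11 and RACK1, its platform on the small subunit, by 0.19. Among the members that fell, VCP, the extraction ATPase, had 319, 329.8 and 343 CPM in the HBS1L dox libraries, against 447, 427 and 472 CPM in the control dox libraries (-0.44 ± 0.04, adjusted p = 1.25e-09). MAP3K20, the kinase that signals collisions, LTN1, the ligase for trapped nascent chains, and ASCC3, the helicase that clears collided ribosomes, had log2 fold changes of -0.35, -0.33 and -0.33. GCN1, which hands collided ribosomes to the eIF2 kinase GCN2, fell by 0.22 on the log2 scale.

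Ribosomal protein genes and factors for making ribosomes went opposite ways with dox at 96 h. Of 78 cytosolic ribosomal protein genes 43 rose and 0 fell, by small amounts (median 0.17 with dox, -0.07 without), and their summed level was 83541 to 89457 CPM in the HBS1L dox libraries and 72889 to 83023 CPM in the control dox libraries. RPL12 had 1729.7, 1797 and 1652 CPM in the HBS1L dox libraries, against 1177, 1180.3 and 1318 CPM in the control dox libraries (0.49 ± 0.06, adjusted p = 2.69e-08), and RPL26 rose by 0.30. Many of these genes have processed pseudogenes that can share reads. The count was 25 and 26 without HBS1L dox replicate 1 or 2, and 27 and 24 without control dox replicate 1 or 2. Of 32 ribosome biogenesis factors 0 rose and 18 fell (median -0.13), with UTP20, of the small subunit processome, at 54.02, 53.04 and 62.2 CPM in the HBS1L dox libraries, against 75.6, 72.6 and 64.1 CPM in the control dox libraries (-0.33 ± 0.11, adjusted p = 0.0198) and POLR1A, the large subunit of RNA polymerase I, at 129, 127 and 139.6 CPM in the HBS1L dox libraries, against 167, 160.2 and 150.3 CPM in the control dox libraries (-0.27 ± 0.09, adjusted p = 0.0211). That count was 5 without HBS1L dox replicate 1 or without control dox replicate 1 and 11 without HBS1L dox replicate 2, and in each of these 3 cases UTP20 and POLR1A were not called (UTP20 adjusted p = 0.0766, 0.0913 and 0.0888). The biogenesis list had a median of -0.05 without dox. For the difference with dox minus that without dox, 0 of its members were called upward and 1 downward (median -0.03). Neither UTP20 nor POLR1A was called for that difference. At 48 h with dox 7 biogenesis factors rose and 4 fell. Translation factors split, with 10 of 34 up and 12 down, where 14.9% and 14.8% of all genes were. EIF1, which guards the choice of start codon, had 704, 726 and 700.4 CPM in the HBS1L dox libraries, against 539.5, 539.6 and 565 CPM in the control dox libraries (0.37 ± 0.04, adjusted p = 1.36e-08), and EEF1D, an elongation factor subunit, rose by 0.22. EIF5A, which helps ribosomes through difficult peptide bonds, had 943, 974 and 1019.7 CPM in the HBS1L dox libraries, against 1345, 1229 and 1446 CPM in the control dox libraries (-0.45 ± 0.06, adjusted p = 1.45e-07), and EIF1AX and EIF4G1, the scaffold of the cap complex, had -0.32 and -0.32. Without HBS1L dox replicate 2 or control dox replicate 2, 6 translation factors rose.

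Nearly all measured genes of cholesterol and fatty acid synthesis fell. These genes answer to the SREBP transcription factors, which are released when membrane sterol is low. Of 31 members tested 28 fell and 1 rose, and 29 had every HBS1L dox library below every control dox library. Over all genes the groups did not overlap, in either direction, for 42.1%. The median log2 fold change was -0.45 with dox at 96 h, -0.03 without dox and -0.08 with dox at 48 h. Their summed level was 4044 to 4177 CPM in the HBS1L dox libraries and 6311 to 6405 CPM in the control dox libraries.

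INSIG1, which holds the SREBPs back and is itself one of their targets, had 48, 50.03 and 46.7 CPM in the HBS1L dox libraries, against 93.5, 90.6 and 95.4 CPM in the control dox libraries (-0.95 ± 0.04, adjusted p = 3.63e-20). It was the largest fall of the list. SCD, which makes monounsaturated fatty acids, had 1118, 1047 and 1068 CPM in the HBS1L dox libraries, against 1957, 2034 and 2003 CPM in the control dox libraries (-0.89 ± 0.07, adjusted p = 6.22e-12). DHCR7, of the last steps of cholesterol synthesis, had 72.5, 65 and 66.6 CPM in the HBS1L dox libraries, against 121, 117 and 131 CPM in the control dox libraries (-0.86 ± 0.07, adjusted p = 8.49e-12). Earlier in the pathway, HMGCS1, IDI1 and LSS had log2 fold changes of -0.58, -0.70 and -0.70. FASN, fatty acid synthase, had 630.1, 617 and 599.6 CPM in the HBS1L dox libraries, against 1006, 1014 and 970.3 CPM in the control dox libraries (-0.70 ± 0.06, adjusted p = 7.34e-11). SREBF1 and SREBF2, which encode the SREBPs, had -0.30 and -0.28. TM7SF2, a sterol reductase gene, was the 1 member that rose (0.18 ± 0.07, adjusted p = 0.0478), and it was not called with DESeq2, with the authors' log2 values, or without HBS1L dox replicate 1 or 2 or control dox replicate 1 or 2. The box CCAAT, searched on both strands in the same promoter windows, was in 19 of 24 members with a promoter and in 39.7% of all genes. Exons of ACAT2 (-0.50) and CYP51A1 (-0.38) overlap other genes over 52.3% and 83.2% of their length.

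NF-kB pathway genes were lower. NF-kB dimers are held by inhibitors and, once free, drive inflammatory and survival genes, among them their own inhibitors. Of 19 members 0 rose and 13 fell (median -0.25 with dox, 0.05 without dox and -0.02 at 48 h). Among the dimer subunits, NFKB1 had 46.6, 46.8 and 47.5 CPM in the HBS1L dox libraries, against 55.1, 55.7 and 58.02 CPM in the control dox libraries (-0.26 ± 0.05, adjusted p = 4.19e-05), REL had -0.43 and RELA -0.13, while NFKB2 was not called (-0.01). Of the inhibitors and targets, TNFAIP3 had 2.56, 2.49 and 2.82 CPM in the HBS1L dox libraries, against 3.45, 4.29 and 4.31 CPM in the control dox libraries (-0.62 ± 0.11, adjusted p = 6.01e-05), BIRC3 had 17.7, 18.3 and 20.01 CPM in the HBS1L dox libraries, against 26.3, 28.7 and 24.7 CPM in the control dox libraries (-0.51 ± 0.06, adjusted p = 1.51e-08), and NFKBIA and NFKBIE had -0.21 and -0.37. TNF was called lower at 0.0836 CPM or less in the HBS1L dox libraries and 0.116 to 0.310 CPM in the control dox libraries, which is close to the floor. Without control dox replicate 3, 8 members fell. The motif searched on both strands as GGG, then any 3 bases, then TTCC, was in 11 of 17 promoters of the list, 7 of them of members that fell, and in 7.83% of all genes.

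**Figure D3:**
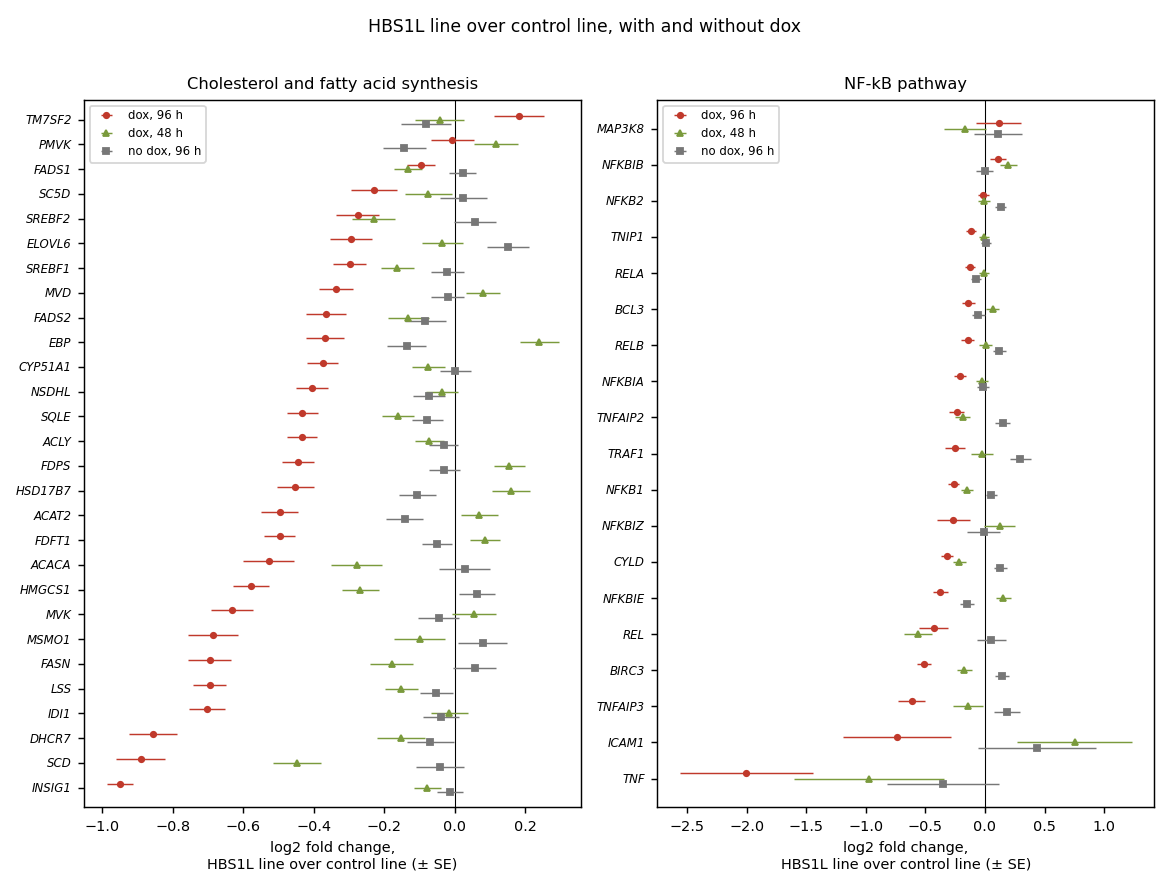
Log2 fold changes of the HBS1L line over the control line (horizontal axes, with SE) for tested members of the cholesterol and fatty acid synthesis list and of the NF-kB pathway list, with dox at 96 h (circles), with dox at 48 h (triangles) and without dox at 96 h (squares). The circles reach -0.95 for INSIG1; 28 of all 31 tested sterol and fatty acid genes and 13 of 19 NF-kB genes fell with dox at 96 h, with the squares near 0 for most members.

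DNA replication genes were lower and mitosis genes largely were not. Of 40 replication and E2F target genes 0 rose and 34 fell (median -0.28 with dox, -0.07 without dox and 0.07 at 48 h). The subunits of the replicative helicase led: MCM3 had 133, 136 and 151 CPM in the HBS1L dox libraries, against 222, 198 and 196 CPM in the control dox libraries (-0.55 ± 0.05, adjusted p = 4.31e-10), MCM2 had 212, 211 and 229 CPM in the HBS1L dox libraries, against 321, 291 and 317 CPM in the control dox libraries (-0.51 ± 0.06, adjusted p = 1.73e-08), and MCM4, MCM5, MCM6 and MCM7 had -0.40, -0.48, -0.47 and -0.40. PCNA, the sliding clamp, fell by 0.38 on the log2 scale, while CCNE1 (0.03) and CDT1 (-0.06) were not called. The E2F letters TTTCCCGC, on both strands, were in 9 of 34 promoters of the list and in 1.98% of all genes. Of 28 mitosis genes 2 rose and 6 fell (median -0.04), where 14.9% of all genes rose and 14.8% fell. UBE2C, a ubiquitin-conjugating enzyme of mitotic exit, had 211, 218 and 225 CPM in the HBS1L dox libraries, against 199.5, 183 and 195 CPM in the control dox libraries (0.18 ± 0.05, adjusted p = 0.00492). The spindle motor KIF11 had 179, 179 and 206 CPM in the HBS1L dox libraries, against 242, 226 and 232 CPM in the control dox libraries (-0.31 ± 0.06, adjusted p = 8.51e-05). MKI67 (-0.02), CCNB1 (-0.02) and PLK1 (0.03) were not called. Without HBS1L dox replicate 3, 10 mitosis genes fell, and 1 rose without HBS1L dox replicate 2 or 3 or control dox replicate 2 or 3, and with a replicate block.

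Among histone genes 10 of 20 fell and 1 rose (median -0.37, and -0.50 without control dox replicate 2). H1-2, a linker histone, had 26.2, 27.7 and 28.8 CPM in the HBS1L dox libraries, against 48.2, 42.99 and 46.4 CPM in the control dox libraries (-0.73 ± 0.06, adjusted p = 3.97e-11). H1-5, H2BC8 and H1-4 had log2 fold changes of -1.65, -1.44 and -1.16, with group means at under 2 CPM. Transcripts of replication-dependent histones mostly lack a poly(A) tail, and polyadenylated libraries hold few of them. G1 regulators had 4 of 17 up and 7 down, where 14.9% and 14.8% of all genes were. CDKN1A, the p21 inhibitor of cyclin-dependent kinases, had 7.73, 6.61 and 9.42 CPM in the HBS1L dox libraries, against 3.78, 4.01 and 4.34 CPM in the control dox libraries (0.97 ± 0.12, adjusted p = 2.22e-07), and CCND2 rose by 0.89, while CDK6 had 10.7, 10.1 and 11.7 CPM in the HBS1L dox libraries, against 14.2, 13.2 and 13 CPM in the control dox libraries (-0.32 ± 0.09, adjusted p = 0.00515). CCND2 was also higher in the HBS1L line without dox (0.69 ± 0.15, adjusted p = 0.0432). CDK6 was lower there by a like amount, though not called (-0.31). It averaged 14.8 CPM in the untreated HBS1L line and 18.3 CPM in the untreated control line, without overlap. For CDK6 the difference with dox minus that without dox was -0.008 and was not called. Without HBS1L dox replicate 1 or control dox replicate 1, 2 G1 regulators rose, and without control dox replicate 3, 4 fell. CDKN2A and CDKN2B were too low to test.

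Of 26 p53 targets 7 rose and 3 fell (median 0.09). Beside CDKN1A, the rises included FDXR, a mitochondrial reductase, at 60.5, 62.04 and 61.5 CPM in the HBS1L dox libraries, against 30.1, 33.5 and 38.9 CPM in the control dox libraries (0.84 ± 0.06, adjusted p = 2.67e-13), and PHLDA3, which restrains AKT (0.84), GADD45A (0.54) and BBC3, a death promoter (0.41). MDM2 (0.10), BAX (-0.03) and ZMAT3 (-0.09) were not called, and RRM2B, a ribonucleotide reductase subunit, was lower (-0.17 ± 0.05, adjusted p = 0.0169), though not without HBS1L dox replicate 1 or 2 or control dox replicate 3 (adjusted p = 0.129, 0.0601 and 0.0868), when 1 p53 target fell. MIA PaCa-2 is known to carry mutant p53. In the BCL2 family and apoptosis list 2 of 27 rose, 6 fell and 19 were not called, where 14.9% of all genes rose and 14.8% fell. The death promoter HRK had 1.87, 1.89 and 2.33 CPM in the HBS1L dox libraries, against 1.12, 1.15 and 1.12 CPM in the control dox libraries (0.84 ± 0.12, adjusted p = 2.37e-06). The other rise was PMAIP1 (0.34), and the 6 falls included the inhibitors of death BIRC3 and BIRC5, at -0.51 and -0.36.

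Interferon-stimulated genes went both ways. Of 42 tested 14 rose and 4 fell at 96 h with dox (median 0.11), whereas at 48 h with dox 0 rose and 27 fell (median -0.26), where 9.47% and 13.6% of all genes rose and fell. Between the times the difference moved up for 25 members and down for 1, where 10.6% and 9.43% of all genes did. Without dox 0 were called (median -0.04). OASL, a relative of the 2-5A synthetases, had 8.79, 8.23 and 5.56 CPM in the HBS1L dox libraries, against 3.04, 4.67 and 4.72 CPM in the control dox libraries (0.86 ± 0.18, adjusted p = 4.90e-04) at 96 h and a log2 fold change of -0.77 at 48 h. Without dox OASL averaged 5.92 CPM in the HBS1L line and 6.93 CPM in the control line, between the means of the dox groups. HERC5, the ligase for ISG15, had 1.64, 1.74 and 1.67 CPM in the HBS1L dox libraries, against 0.985, 1.10 and 1.03 CPM in the control dox libraries (0.70 ± 0.16, adjusted p = 0.00108). ISG15 itself had 11.8, 11.7 and 9.88 CPM in the HBS1L dox libraries, against 7.05, 8.002 and 9.10 CPM in the control dox libraries (0.47 ± 0.09, adjusted p = 2.05e-04). The groups did not overlap for these 3 genes, which was a condition of naming for OASL and HERC5. Of the 4 that fell, IFIT5, which binds RNA ends, had 25.4, 26.02 and 25.6 CPM in the HBS1L dox libraries, against 33.7, 31.3 and 34.6 CPM in the control dox libraries (-0.37 ± 0.05, adjusted p = 3.01e-07). PARP9, an ADP-ribosyltransferase, had 14.8, 14.1 and 15.1 CPM in the HBS1L dox libraries, against 18.1, 19.03 and 17.3 CPM in the control dox libraries (-0.31 ± 0.07, adjusted p = 4.40e-04); IFITM2 had -0.28. The number that rose was 7 with the authors' log2 values and 8 and 7 without HBS1L dox replicate 2 or control dox replicate 1.

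The interferon element, searched on both strands as GAAA, then any 2 bases, then GAAA, was in 23 of 33 promoters of these genes and in 4.38% of all genes. It was in 9 of 11 promoters of members that rose and in both promoters of members that fell, so windows of both kinds are shown, with the match in capitals.
IFI44: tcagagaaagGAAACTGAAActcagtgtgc
ISG15: catgcctcggGAAAGGGAAAccgaaactga
HERC5: aatcgaaaagGAAAAGGAAActgtaatgag
IFIT5: gtaagcttcaGAAACCGAAActtaatagaa
PARP9: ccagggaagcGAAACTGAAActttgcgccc
The windows lie at chr1:78649761-78649790 on the - strand for IFI44, chr1:1013374-1013403 on the + strand for ISG15 and chr4:88456984-88457013 on the - strand for HERC5. Those of the genes that fell lie at chr10:89414513-89414542 on the - strand for IFIT5 and chr3:122564322-122564351 on the + strand for PARP9. IFI44 had 0.547, 0.385 and 0.262 CPM in the HBS1L dox libraries, against 0.173, 0.166 and 0.0517 CPM in the control dox libraries (1.59 ± 0.36, adjusted p = 7.69e-04). The same core letters, GAAACTGAAA, stood before IFI44, which rose, and PARP9, which fell.

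Of 15 antigen presentation genes 3 rose and 0 fell, HLA-B and HLA-C by 0.35 and 0.34. Over all genes tested 14.9% rose and 14.8% fell. The HLA genes share much sequence, so reads may be exchanged among them. B2M (-0.05) and TAP1 (-0.06) were not called. Without control dox replicate 3, 5 antigen presentation genes rose and 1 fell. Of 17 chemokine and cytokine genes 6 rose and 3 fell. IL11, a cytokine of the IL-6 family, had 1.35, 1.71 and 1.21 CPM in the HBS1L dox libraries, against 0.656, 0.715 and 0.483 CPM in the control dox libraries (1.20 ± 0.18, adjusted p = 2.83e-06), and IL18 and CCL5 rose by 1.05 and 0.97. Without dox IL11 averaged 1.08 CPM in the HBS1L line and 1.06 CPM in the control line, between the means of the dox groups. IL32 had 1.18, 1.20 and 0.951 CPM in the HBS1L dox libraries, against 1.43, 1.36 and 1.69 CPM in the control dox libraries (-0.43 ± 0.15, adjusted p = 0.0332) and was not called without HBS1L dox replicate 1 or 3 or control dox replicate 1 or 3 (adjusted p = 0.0527, 0.152, 0.0546 and 0.174). With any 1 of these left out except HBS1L dox replicate 1, or without control dox replicate 2, 1 gene of the list fell. CXCL8 (-0.04) and IL1B (-0.06) were not called.

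Of 24 immediate early and AP-1 genes 10 rose and 1 fell (median 0.09), and at 48 h with dox 15 rose and 1 fell. Over all genes tested 14.9% rose and 14.8% fell at 96 h, and 9.47% and 13.6% at 48 h. EGR1 had 70.3, 69.4 and 69.8 CPM in the HBS1L dox libraries, against 48.3, 55.01 and 48.4 CPM in the control dox libraries (0.46 ± 0.06, adjusted p = 2.82e-07), FOS rose by 0.46 and EGR3 by 0.81, while JUN (0.01) and MYC (-0.07) were not called. Without control dox replicate 2, 6 rose, and FOSL2 (-0.23 ± 0.08, adjusted p = 0.0289) was not called without HBS1L dox replicate 1 or 2 or control dox replicate 1. AREG, a ligand of the EGF receptor, had 91.4, 93.5 and 88.6 CPM in the HBS1L dox libraries, against 56.4, 63.3 and 59.6 CPM in the control dox libraries (0.61 ± 0.05, adjusted p = 2.36e-12). It was 1 of 3 members that rose among 12 EGF receptor family genes, with 0 lower, beside BTC (0.60) and ERBB3 (0.33). RAS-MAPK output had 3 of 15 up and 4 down, near the shares of all genes, with the phosphatase DUSP4 at 3.19, 3.16 and 2.87 CPM in the HBS1L dox libraries, against 1.93, 2.30 and 2.55 CPM in the control dox libraries (0.44 ± 0.13, adjusted p = 0.00834) and the factor ETV1 at 31.5, 32.4 and 31.6 CPM in the HBS1L dox libraries, against 37.7, 41.6 and 38.1 CPM in the control dox libraries (-0.30 ± 0.06, adjusted p = 2.10e-04). DUSP4 was not called without control dox replicate 1 (adjusted p = 0.0731). YAP and TEAD targets had 3 of 18 up and 7 down, with the receptor kinase AXL rising by 0.18, and the kinase NUAK2 at 6.86, 6.92 and 7.37 CPM in the HBS1L dox libraries, against 9.28, 9.998 and 8.81 CPM in the control dox libraries (-0.41 ± 0.08, adjusted p = 2.05e-04).

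Cytosolic chaperone and proteasome genes were lower. Of 19 cytosolic heat shock genes 0 rose and 16 fell (median -0.20), among them HSPA1A, the inducible HSP70, at 156, 160.1 and 180.2 CPM in the HBS1L dox libraries, against 238, 205 and 238 CPM in the control dox libraries (-0.46 ± 0.07, adjusted p = 2.32e-06), which shares nearly all its coding sequence with HSPA1B (-0.38). Without control dox replicate 3, 1 heat shock gene rose. Of 31 proteasome subunits 0 rose and 21 fell (median -0.19), with PSMD1 and PSMD2, the large base subunits, at -0.35 and -0.34. Over all genes tested 14.9% rose and 14.8% fell. Without dox the heat shock and proteasome medians were -0.05 and -0.08. For the difference with dox minus that without dox, 0 members of either list were called upward. Downward calls were 4 in the heat shock list and 7 in the proteasome list (medians -0.15 and -0.09). At 48 h with dox both lists had medians above 0 (0.13 and 0.14), with 9 and 17 members higher and 0 lower. The endoplasmic reticulum stress list was mixed, with 4 of 23 up and 9 down. XBP1, its transcription factor, had 112, 121 and 128 CPM in the HBS1L dox libraries, against 91.7, 86.7 and 102 CPM in the control dox libraries (0.36 ± 0.05, adjusted p = 4.19e-07). SDF2L1, a chaperone cofactor, had 15.9, 15.97 and 15.1 CPM in the HBS1L dox libraries, against 22.1, 18.96 and 22.4 CPM in the control dox libraries (-0.44 ± 0.08, adjusted p = 5.04e-05) and HSPA5, the main chaperone, was not called (-0.06). Without HBS1L dox replicate 2 or 3, or control dox replicate 3, 2 members of that list rose.

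Of 23 NRF2 targets 10 rose and 2 fell: AKR1C1, an aldo-keto reductase with close paralogs, had 337, 356 and 376 CPM in the HBS1L dox libraries, against 212, 197 and 236 CPM in the control dox libraries (0.73 ± 0.06, adjusted p = 1.70e-12), FTH1 and NQO1 rose by 0.51 and 0.34, HMOX1 (0.13) was not called, and TXNRD1 was lower (-0.18 ± 0.06, adjusted p = 0.0130) but was not called without HBS1L dox replicate 1 or 2 or control dox replicate 1, when 1 NRF2 target fell. Autophagy and lysosome genes had 6 of 32 up and 5 down, shares near the 14.9% and 14.8% of all genes. WIPI1, which binds the early autophagosome, had 23.2, 24.8 and 24.2 CPM in the HBS1L dox libraries, against 14.9, 15.5 and 16.2 CPM in the control dox libraries (0.63 ± 0.06, adjusted p = 4.92e-11) with exon overlap over 28.1% of its length, and ATG13, of the starting kinase complex, had 85.4, 86.3 and 83.3 CPM in the HBS1L dox libraries, against 107, 109 and 113 CPM in the control dox libraries (-0.37 ± 0.05, adjusted p = 8.47e-07). GABARAPL2 was lower (-0.18 ± 0.05, adjusted p = 0.00616) but was not called without control dox replicate 3 (adjusted p = 0.0518). The number that fell was 3 without HBS1L dox replicate 1, with no filter on low counts or with only the compared libraries, and 2 without control dox replicate 3. Hypoxia and glycolysis genes had 4 of 29 up and 12 down, with VEGFA, given above, the largest rise and PGAM1, a glycolytic mutase, at 332, 342 and 333 CPM in the HBS1L dox libraries, against 429, 401 and 471 CPM in the control dox libraries (-0.37 ± 0.06, adjusted p = 5.41e-06), and PGK1 and LDHA at -0.30 and -0.25. Nuclear genes of the respiratory chain had 0 of 71 up and 14 down (median -0.07), with UQCRFS1, the iron-sulfur protein of complex III, at 136, 143 and 137 CPM in the HBS1L dox libraries, against 189, 183 and 208 CPM in the control dox libraries (-0.48 ± 0.05, adjusted p = 2.15e-08) and COX7B at -0.36. Without control dox replicate 3, 7 fell. Of all genes tested 14.8% fell. The median of these respiratory chain genes was -0.09 without dox. For the difference with dox minus that without dox, 1 was called upward and 2 downward (median 0.03). At 48 h with dox 31 rose and 1 fell. COX7B was not called without HBS1L dox replicate 1 or 3, without control dox replicate 1 or 3 (adjusted p = 0.0709, 0.0880, 0.0503 and 0.163) or with no filter (0.0693). Without control dox replicate 3 or HBS1L dox replicate 3, 1 gene of the list rose. Of 13 mitochondrially encoded genes 1 was called: MT-ND6, at 25.7, 21.5 and 19.8 CPM in the HBS1L dox libraries, against 13.96, 16.4 and 12.4 CPM in the control dox libraries (0.65 ± 0.24, adjusted p = 0.0416), and its untreated difference was 0.90 ± 0.23, adjusted p = 0.175. MT-ND6 was not called without HBS1L dox replicate 1 or 2, or control dox replicate 1 or 3 (adjusted p = 0.160, 0.0726, 0.102 and 0.143), nor with a replicate block (0.0632) or with no filter on low counts (0.104).

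Genes of cell state and matrix held some of the larger changes. Of 23 epithelial and mesenchymal genes 10 rose and 2 fell, where 14.9% of all genes rose and 14.8% fell. ITGB4, the laminin-binding integrin of hemidesmosomes, had 175, 163 and 151 CPM in the HBS1L dox libraries, against 98.9, 110.0 and 108 CPM in the control dox libraries (0.63 ± 0.07, adjusted p = 4.25e-09), and SNAI2, a repressor of epithelial genes, and MMP14, a membrane protease, rose by 0.81 and 0.89. Without dox ITGB4 averaged 132 CPM in the HBS1L line and 149 CPM in the control line, between the means of the dox groups. At 48 h with dox ITGB4 was lower in the HBS1L line (-0.55). SPARC, a matrix protein, rose by 1.05, and it was also higher without dox (1.18 ± 0.24, adjusted p = 0.0240). CLDN1, a tight junction protein, was lower with dox, at 60.5, 64.7 and 71.2 CPM in the HBS1L dox libraries, against 73.8, 73.1 and 75.8 CPM in the control dox libraries (-0.18 ± 0.05, adjusted p = 0.00268), and higher in the HBS1L line without dox (0.38 ± 0.05, adjusted p = 1.14e-05). Without HBS1L dox replicate 1 the difference with dox was not called (adjusted p = 0.0550) and 0 genes of the list fell; 1 fell without HBS1L dox replicate 2 or control dox replicate 1 or 3. Of 10 keratins 5 rose and 2 fell: KRT8 had 1320.2, 1325 and 1351 CPM in the HBS1L dox libraries, against 1928, 1770.0 and 2022 CPM in the control dox libraries (-0.52 ± 0.06, adjusted p = 7.13e-09), its partner KRT18 had -0.37, and the rises were KRT86, KRT16, KRT81, KRT15 (0.68) and KRT19 (0.24). The authors' log2 table holds fewer of these genes, and with it 2 keratins rose. Collagens and other matrix genes had 7 of 21 up and 3 down, with COL5A1 at 4.54, 4.55 and 4.66 CPM in the HBS1L dox libraries, against 2.06, 2.99 and 2.55 CPM in the control dox libraries (0.85 ± 0.14, adjusted p = 9.17e-06) and COL17A1, a hemidesmosome collagen, at 120.4, 126 and 126 CPM in the HBS1L dox libraries, against 168, 158 and 169 CPM in the control dox libraries (-0.41 ± 0.04, adjusted p = 2.13e-10). At 48 h with dox COL5A1 was lower in the HBS1L line (-0.74) and COL17A1 higher (0.18). Of the matrix list 1 gene rose and 9 fell at 48 h. For COL5A1 the difference with dox minus that without dox was 0.56 and was not called.

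**Figure D4:**
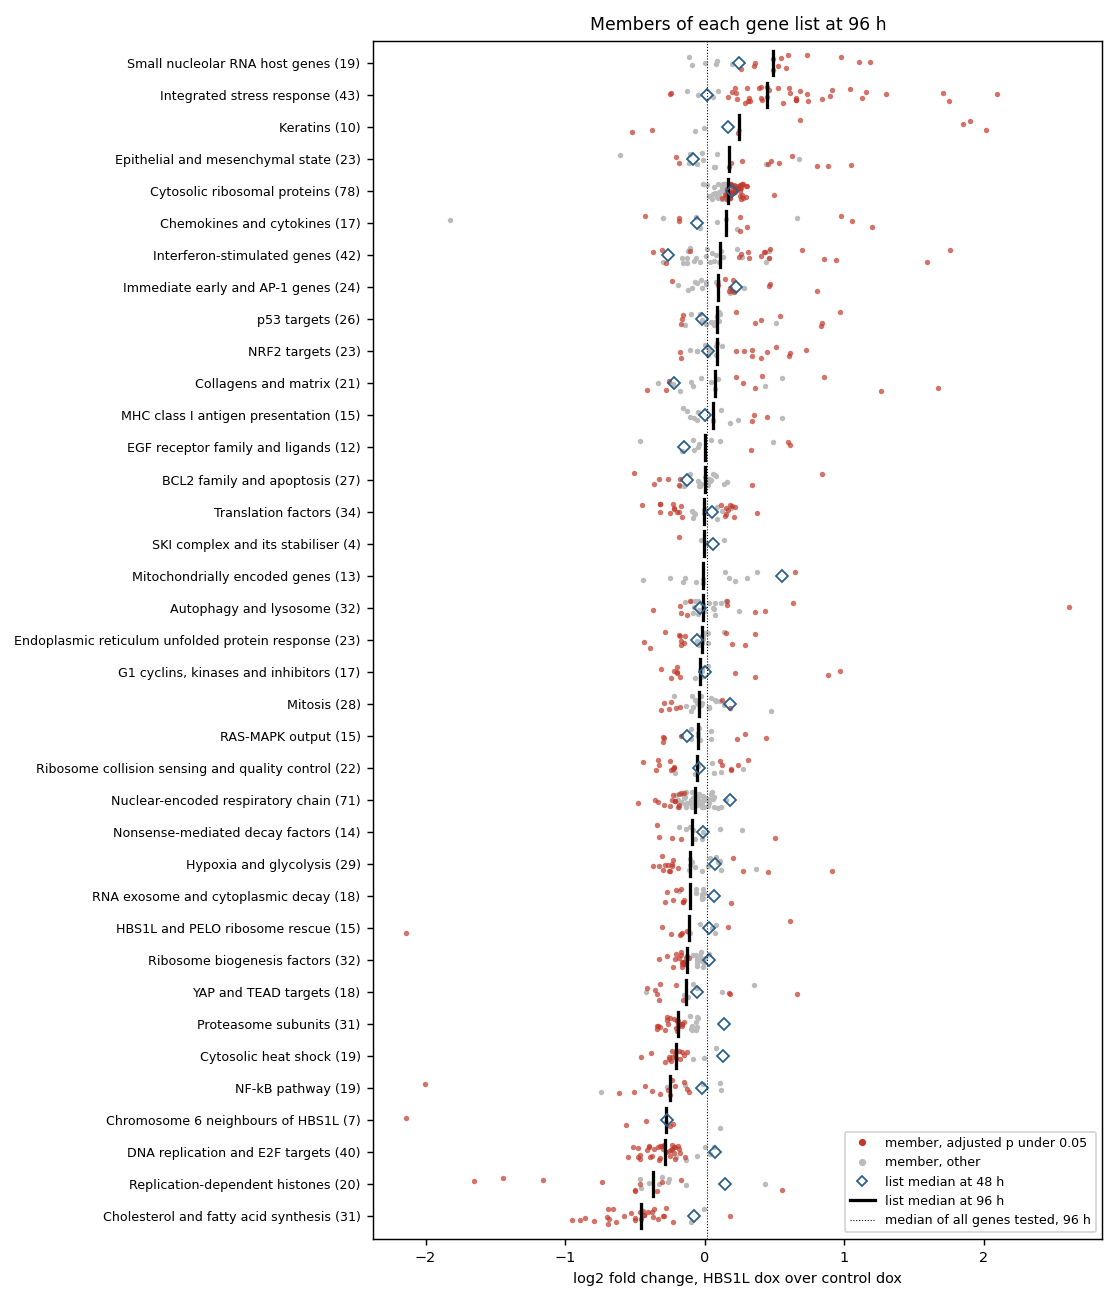
Log2 fold change, HBS1L dox over control dox at 96 h (horizontal axis), of every tested member of the 37 gene lists (rows, with the number tested), in red where the adjusted p was under 0.05. Black bars are list medians at 96 h, diamonds list medians at 48 h and the dotted line the median of all genes tested, 0.01. Host genes of small nucleolar RNAs (0.49) and stress genes (0.45) have the highest medians at 96 h, and cholesterol and fatty acid genes (-0.45) the lowest.

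Genes of at least 1 CPM whose groups did not overlap were ranked by fold change, and the 12 at each end are given as a description, with no test. LAMP3, a lysosomal membrane gene induced by stress (chromosome 3, 183122213 to 183163839), had 1.71, 1.66 and 2.51 CPM in the HBS1L dox libraries, against 0.363, 0.266 and 0.328 CPM in the control dox libraries, a log2 fold change of 2.61. UNC5B, a netrin receptor, had 18.6, 22.04 and 24.9 CPM in the HBS1L dox libraries, against 5.70, 6.69 and 5.88 CPM in the control dox libraries (1.84). NIBAN1, a stress-induced regulator of translation, had 76.5, 87.8 and 103 CPM in the HBS1L dox libraries, against 26.2, 29.4 and 27.9 CPM in the control dox libraries (1.68). In these 3 genes the untreated means of both lines lay near or below those of the control dox libraries, as they did in CHST1, a sulfotransferase gene (1.66), and LINC01629 (1.88). KRT81 and KRT86, hair keratins, had 4.76, 4.62 and 4.61 CPM and 2.06, 2.16 and 2.30 CPM in the HBS1L dox libraries, against 1.23, 1.28 and 1.36 CPM and 0.484, 0.316 and 0.810 CPM in the control dox libraries; they are near-identical paralogs and their reads may be shared.

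In other genes of this group the untreated lines did not lie with the control dox libraries. PEG10, an imprinted retrotransposon-derived gene, had 2.37, 2.61 and 2.10 CPM in the HBS1L dox libraries, against 0.674, 0.499 and 0.621 CPM in the control dox libraries (1.98), but 2.57 CPM in the untreated HBS1L line and 1.74 CPM in the untreated control line. PRODH, the first enzyme of proline breakdown, had 2.50, 2.54 and 1.94 CPM in the HBS1L dox libraries, against 0.691, 0.915 and 0.621 CPM in the control dox libraries (1.64), but 1.59 CPM in the untreated HBS1L line and 1.53 CPM in the untreated control line. SYTL1, of vesicle transport, had 3.38, 3.16 and 2.69 CPM in the HBS1L dox libraries, against 0.967, 0.982 and 0.931 CPM in the control dox libraries (1.68), but 1.95 CPM in the untreated HBS1L line and 1.82 CPM in the untreated control line, between the dox groups. PIK3CG, a kinase catalytic subunit, had 1.09, 1.07 and 1.56 CPM in the HBS1L dox libraries, against 2.71, 2.99 and 2.90 CPM in the control dox libraries (-1.21), but 1.84 CPM in the untreated HBS1L line and 1.25 CPM in the untreated control line, nearer to the HBS1L dox libraries. KIAA1549L, with 7.63, 7.74 and 8.65 CPM in the HBS1L dox libraries, against 15.5, 14.5 and 14.7 CPM in the control dox libraries (-0.90), had 8.44 CPM in the untreated HBS1L line and 9.26 CPM in the untreated control line. PCDH15, a protocadherin gene (-0.92), had 1.75 CPM in the untreated HBS1L line and 1.90 CPM in the untreated control line, against 2.68, 2.65 and 2.64 CPM in the control dox libraries. AIM2, a sensor of cytosolic DNA, had 0.869, 1.02 and 1.08 CPM in the HBS1L dox libraries, against 2.31, 2.03 and 2.52 CPM in the control dox libraries (-1.21), with 1.34 CPM in the untreated HBS1L line and 1.45 CPM in the untreated control line. For these 7 genes the mean of the control dox libraries stood apart from that of the untreated control line.

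In other falls the untreated means lay nearer to those of the control dox libraries. IL21R, a cytokine receptor gene, had 0.531, 0.468 and 0.410 CPM in the HBS1L dox libraries, against 1.55, 2.08 and 1.84 CPM in the control dox libraries (-1.95). FOXA1, a pioneer factor of endoderm, had 2.38, 2.21 and 2.17 CPM in the HBS1L dox libraries, against 3.66, 4.59 and 4.29 CPM in the control dox libraries (-0.89), and its untreated means lay between, at 3.23 CPM in the untreated HBS1L line and 3.43 CPM in the untreated control line. CDH5, an endothelial cadherin that this line expresses, had 9.93, 9.87 and 8.56 CPM in the HBS1L dox libraries, against 14.8, 20.3 and 19.2 CPM in the control dox libraries (-0.94), and was as low at 48 h (-1.05). VAV3, an exchange factor for small GTPases, had -0.91, and the mitochondrial tRNA gene MT-TT -1.02. ENSG00000279348, which carries no gene name in the annotation, had -0.98. Exons of IL21R and LINC01629 overlap other genes over 23.3% and 19.97% of their length, and among genes named earlier those of REL did over 43.3%, EEF1D over 34.03%, ACTA2 over 30.1% and MCM2 over 23.6%.

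**Figure D5:**
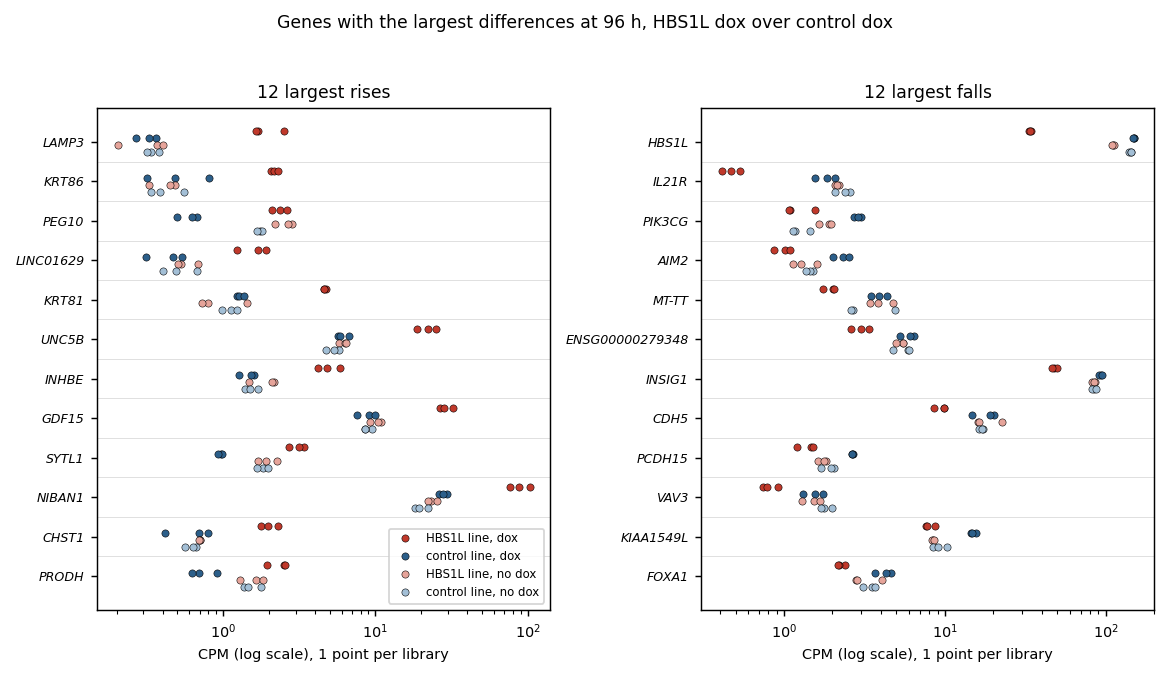
Levels in CPM (horizontal axes, log scale, 1 point per library) of the 12 genes with the largest rises and the 12 with the largest falls at 96 h, HBS1L dox over control dox, in the 4 groups of libraries. The red HBS1L dox points of LAMP3, at 1.66 to 2.51 CPM, stand to the right of all other groups, while for PEG10 and PIK3CG the untreated lines lie on the side of the HBS1L dox points.

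Without dox, 28 genes differed between the HBS1L and control lines, 18 higher (0.0867%) and 10 lower (0.0482%) in the HBS1L line, by edgeR's quasi-likelihood test, and 2120 had an unadjusted p under 0.05. Of the 28, 13 were called in the same direction with dox (46.4% of the 28, and 0.210% of the 6185), and 5 in the opposite direction. CALB2, a calcium-binding protein gene, was lower in the HBS1L line both with dox (-0.64) and without (-0.80). LAMA4, a laminin chain, was higher both with dox (1.11) and without (1.02). S100A2, another calcium-binding protein gene, was higher with dox (1.03) and lower without (-0.52). These 3 genes were chosen after their values were seen. Neither of these comparisons shares a library with the other.

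At 48 h with dox, 4791 genes (23.1%) differed between the HBS1L and control lines, 1967 higher and 2824 lower. Of these, 1420 were called in the same direction at 96 h (29.6% of the genes called at 48 h and 23.0% of those called at 96 h) and 516 in the opposite direction. The difference between the lines itself changed between the times at 4155 genes, 2197 upward (10.6%) and 1958 downward (9.43%) at 96 h. Of the stress list, 34 of 43 members moved upward between the times and 1 downward; of the cholesterol and fatty acid list, 0 moved upward and 24 of 31 downward. Of 19 small nucleolar RNA host genes, 14 were already higher at 48 h and 1 lower. The libraries of the 2 times carry library numbers from separate blocks in the labels, so time and any difference between those blocks cannot be told apart. The count at 48 h was 2102 without control 48 h dox replicate 1 and 2740 without HBS1L 48 h dox replicate 2.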

How the data were processed

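Polyadenylated RNA was sequenced in 36 libraries of MIA PaCa-2 lines, 12 groups of 3, grouped by their titles. The submitters' processing notes name the tools DRAGEN, Subread, featureCounts, limma and edgeR and the build GRCh38.p13. Roles, options, versions and annotation are not given in what was used here. The table the authors deposited holds expected counts per Ensembl gene: 45.6% of values above 0 were not whole, as when a read is shared among genes. A second deposited table holds log2 CPM for 17138 of the 61544 genes, each value being log2 of the count plus 0.5 plus a constant per library; it was used only as an alternative.

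Counts were rounded, and edgeR 4.0.16 (R 4.3.3) was run with: filterByExpr (minimum count 10, minimum total 15; 20767 genes, at least 99.9% of counts of each library), TMM scaling, 1 mean per group over all 36 libraries, robust quasi-likelihood F tests and Benjamini-Hochberg adjustment at 0.05. Levels are CPM on TMM-scaled totals. Each SE was taken from the log2 fold change and its F statistic. No 2 libraries were identical. On simulated counts of 20767 genes for this comparison, 97 of 100 genes changed 2-fold and 86 of 100 changed by 0.5 on the log2 scale were recovered, with 15 false calls. The simulated libraries were independent, and each gene had the same mean in every group. Only the genes named as changed, of at least 1 CPM, differed in the HBS1L dox group. It cannot tell how many false calls arise where many genes differ or where replicates are technical. Total counts ran from 45356024 to 107436235 over the 36 libraries; deeper libraries give less counting error.

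The 37 gene lists, the markers and the groups compared were chosen with earlier results of these data known; lists are described by counts and medians and were not tested as lists. Named by rule were HBS1L, its partners, the SKI genes and the chromosome 6 neighbours, the largest called rise and fall of each list (2 each way above 30 members tested) at 1 CPM or more with no overlap between the groups, and the 12 largest rises and falls; other genes were named after their values were seen, to show the members of a list. Symbols matched 61445 of 61544 IDs. Coordinates and exon overlaps came from GENCODE 29 (58342 IDs), on either strand, and promoters from RefSeq (GRCh38.p14). Alternatives were DESeq2 1.42.0 and its size factors, no filter, unrounded counts, only the compared libraries, a replicate block, the deposited log2 values with limma 3.58.1, and leaving out each library. A few genes are not reported here, though they stay in the tests and list counts. The comparison of times was added after the data were seen.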

Additional observations from a re-analysis of the deposited data

Results flagged for a closer look

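Each value here is the difference between the HBS1L and control lines with dox minus the same difference without dox, at 96 h, as a log2 value past an adjusted p of 0.05 in edgeR's test of that difference. It was past that threshold at 2228 genes, and the difference with dox changed between 48 h and 96 h at 4155 genes. HBS1L stood at -1.77, ABCE1 at -0.28 and GTPBP2 at 0.49; the neighbours SGK1, SLC2A12 and TBPL1 stood at -0.19, -0.26 and -0.26.

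Among stress genes the values were 1.43 for INHBE, 1.52 for GDF15, 0.82 for VEGFA, 0.33 for XBP1, -0.30 for SLC38A2 and -0.42 for HSPA1A. Among RNA and translation genes they were 1.16 for ZFAS1, 0.42 for UPF3A, -0.30 for DIS3, 0.34 for EDF1, -0.35 for VCP, 0.39 for EIF1, 0.29 for EEF1D, -0.31 for EIF5A, -0.26 for EIF1AX, 0.52 for RPL12 and 0.37 for RPL26. Among genes of lipids, energy, the proteasome, redox and autophagy they were -0.94 for INSIG1, -0.85 for SCD, -0.24 for PGAM1, -0.39 for UQCRFS1, -0.29 for PSMD1, -0.24 for PSMD2, 0.65 for AKR1C1, 0.57 for WIPI1 and -0.33 for ATG13.

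Among cell cycle and death genes the values were -0.45 for MCM3, -0.40 for MCM2, -0.29 for KIF11, -0.76 for H1-2, 1.02 for CDKN1A, 0.65 for HRK and -0.65 for BIRC3. Among signalling and immune genes they were 0.52 for EGR1, -0.30 for ETV1, 0.68 for AREG, -0.65 for NUAK2, 1.08 for OASL, -0.30 for IFIT5, -0.80 for TNFAIP3, 1.17 for IL11 and -0.79 for IL32. Among genes of cell state they were 0.80 for ITGB4, -0.56 for CLDN1, -0.39 for KRT8, -0.49 for COL17A1 and 0.86 for ACTA2.

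Of the largest rises, LAMP3 stood at 2.69, KRT86 at 2.06, KRT81 at 2.02, LINC01629 at 1.73, UNC5B at 1.63, PRODH at 1.58, SYTL1 at 1.57, CHST1 at 1.49, NIBAN1 at 1.44 and PEG10 at 1.42. Of the largest falls, IL21R stood at -1.82, PIK3CG at -1.76, MT-TT at -1.25, AIM2 at -1.10, CDH5 at -1.05, ENSG00000279348 at -0.93, FOXA1 at -0.80, PCDH15 at -0.79, KIAA1549L at -0.76 and VAV3 at -0.65. The untreated difference of CLDN1, opposite in sign to that with dox, was itself called.

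For 15 of the genes above the call of this difference ended under 1 or more of the 18 or 19 alternatives run, such as other tools and settings or 1 library left out. It ended under 13 for SLC2A12 (adjusted p up to 0.243), 12 for VAV3 (up to 0.139), 11 for PGAM1 (up to 0.181), 9 for SGK1 (up to 0.143), 8 for SLC38A2, 6 for EIF1AX and 5 each for TBPL1 and KIF11. It ended under 4 for HRK, 3 each for IL32 and ETV1, 2 for DIS3, and 1 each for EIF5A, OASL and PSMD2.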

How the results depend on the processing

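Among the genes named by rule, no called gene reversed under any alternative run. The other named genes were not in this count. Of the list medians with the larger shifts, 2 changed sign. Keratins, 0.24, stood at -0.02 with the authors' log2 values, and mitochondrially encoded genes, -0.01, at 0.11 without HBS1L dox replicate 3. Sign changes by smaller shifts, in medians close to 0, were not counted. Over the 102 tested genes named by rule, 1280 of 1318 values with dox at 96 h stayed on the same side of the threshold and 38 were no longer past it; for the difference with minus without dox, 84 of 1930 were no longer past it and 25 newly past it. The count of 6185 ranged from 4634 to 5923 with 1 library left out (2353 to 2958 higher, 2281 to 2965 lower), and HBS1L from -2.14 to -2.13. The 28 genes without dox depended on the settings: 46 with DESeq2 (31 higher), 95 with no filter (61 higher, 34 lower), 17 with only the compared libraries (11 higher, 6 lower), and 12 to 42 with 1 library left out (7 to 35 higher, 5 to 10 lower), namely 17 and 12 without HBS1L no-dox replicate 1 or 3 and 13 without control no-dox replicate 2. The 2228 genes ranged from 1391 to 2421 (759 to 1199 higher, 632 to 1222 lower), with 1484 without HBS1L dox replicate 2, 1391 without HBS1L no-dox replicate 2 and 1404 without control no-dox replicate 2. At 48 h the 4791 genes ranged from 2102 to 4644 (716 to 2035 higher, 1386 to 2609 lower), and 3088 were higher with only the compared libraries. The change between the times ranged from 3069 to 4351. The cause of these shifts was not tested, other than that fewer libraries enter where 1 is left out. Same-numbered libraries did not deviate together (correlations of -0.09 to 0.03), so the numbers were not taken to pair them; with a replicate block the counts were 6094 with dox, 27 without, 2119 for the difference, 4600 at 48 h and 3976 between the times, and the block ended the calls of MT-ND6 and TM7SF2 with dox and of SLC2A12, PGAM1 and VAV3 for the difference (adjusted p = 0.0609, 0.0580 and 0.0611), and left 1 mitosis gene higher in place of 2. Depth limits genes near the floor, such as FGF21, TNF and FOCAD.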
